A study of Homo sapiens with 36 samples.

Results

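Integrin and laminin chain genes were followed in 3 BRAF-mutant human melanoma cell lines. They are 38 protein-coding genes, namely 18 integrin α genes, 8 integrin β genes and 12 laminin chain genes, of the 60656 gene identifiers in the deposited tables. They were taken by gene symbol. After a filter on low values, 35 were tested in 1205Lu, 34 in WM793 and all 38 in A375.

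The series holds 36 RNA-Seq libraries in 12 groups of 3. Each line, 1205LuTR-NR2F1, WM793TR-NR2F1 or A375TR-NR2F1 (here 1205Lu, WM793 and A375), carried a Tet repressor and a doxycycline-inducible cDNA of NR2F1, an orphan nuclear receptor linked to tumor dormancy, delivered by lentivirus and drug selected. Cells received either DMSO or BRAFi + MEKi, each with or without DOX, where BRAFi was PLX4720 at 1 µM, MEKi was PD0325901 at 35 nM and DOX was doxycycline at 100 ng/mL. By the sample labels, DOX was given or withheld for 24 hours before 72 hours of treatment. The paper's methods do not set a no-DOX group apart in the 24-hour step. No library combined DOX with cells lacking the NR2F1 cDNA, so DOX itself and induced NR2F1 cannot be told apart. A375 was grown in another medium than 1205Lu and WM793, so line and medium cannot be told apart where A375 is compared with them.

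Integrins are adhesion receptors built from 1 α and 1 β chain, and the α chain largely sets which matrix protein is bound. Collagens are bound by α1, α2, α10 and α11, laminins by α3, α6 and α7, and proteins with an RGD motif such as fibronectin and vitronectin by α5, α8, αV and αIIb. Laminins are trimers of an α, a β and a γ chain and form the core network of basement membranes. In melanoma, αVβ3 is a classic receptor of invasive tumors, and integrins signal through focal adhesion kinase toward ERK and other pathways. Comparing BRAFi + MEKi with DMSO asks what blocking the MAPK pathway does to these transcripts, and the DOX comparisons ask what induced NR2F1 adds.

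Values below are normalized expression values per gene, in the order of replicates 1, 2 and 3. They summed to between 27027824 and 34621958 per library. WM793 DMSO replicate 1 stood apart with 16636 genes above 0, against 18887 to 23596 in the others. NR2F1 without DOX ran from 2182 to 6273 in 1205Lu, 321 to 3690 in WM793 and 405 to 1431 in A375, and with DOX from 9155 to 35345, 30421 to 76313 and 14995 to 35683, so the DOX states did not overlap in any line. DUSP6, a transcriptional output of ERK, fell under BRAFi + MEKi in 1205Lu (-4.09 ± 0.68, adjusted p = 0.000514), WM793 (-2.25 ± 0.28, adjusted p = 3.3e-05) and A375 (-3.13 ± 0.21, adjusted p = 8.84e-08), given as log2 difference ± SE from limma. Summed melanocytic markers ran from 24430 to 85160 per library, with S100B, CSPG4 or SOX10 the highest of the list in each library, and MLANA and TYR stayed under 10 in all 36 libraries, while DCT, another pigment gene, reached 537 in 1205Lu, 4742 in WM793 and 13703 in A375. Of 6 leukocyte markers, 4 stayed under 10 in every library of 1205Lu and 3 in every library of WM793 and of A375. LAPTM5 reached 118 in 1205Lu and PTPRC 91.0 in WM793, and the list's sum of 371 to 6476 came mostly from CD68, which is not limited to leukocytes.

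Many integrin and laminin transcripts were abundant in all 3 lines before any drug. In DMSO, 15 members had a mean of at least 1000 in every line: ITGA1, ITGA3, ITGA4, ITGA5, ITGA6, ITGAV, ITGB1, ITGB3, ITGB5, ITGB8, LAMA4, LAMA5, LAMB1, LAMB2 and LAMC1. At the other end, ITGAD, ITGAL, ITGB2, ITGB6 and LAMB4, 5 members, stayed under 100 in all 36 libraries. ITGAD, ITGAL and ITGB2 encode leukocyte integrin chains, and ITGB6 an epithelial chain.

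To compare levels between genes, values were divided by the gene's exon length in kb. LAMC1, the γ1 chain of most laminins, stood at 4458 ± 521 per kb in 1205Lu, 7084 ± 1233 in WM793 and 5875 ± 494 in A375 (SD, n = 3). ITGB3 stood at 6206 ± 634, 6645 ± 743 and 1415 ± 421 per kb, so that ITGB3 had the highest mean in 1205Lu and LAMC1 in WM793. In 1205Lu, LAMC1 was within the spread of ITGA6 (4112 ± 1049) and ITGB1, and in WM793 the order of LAMC1 and ITGB3 was within the spread. In A375, LAMC1 was followed by LAMB1 at 2942 ± 120 per kb. ITGB1, the β chain shared by the widest range of α chains, stood at 3925 ± 553, 2218 ± 223 and 1033 ± 133 per kb. Among laminin α chains, LAMA4 led in 1205Lu and WM793 at 2714 ± 532 and 1941 ± 303 per kb, while in A375 LAMA4 (1138 ± 55.7) and LAMA5 (969 ± 493) lay within their spread of each other.

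**Figure D1:**
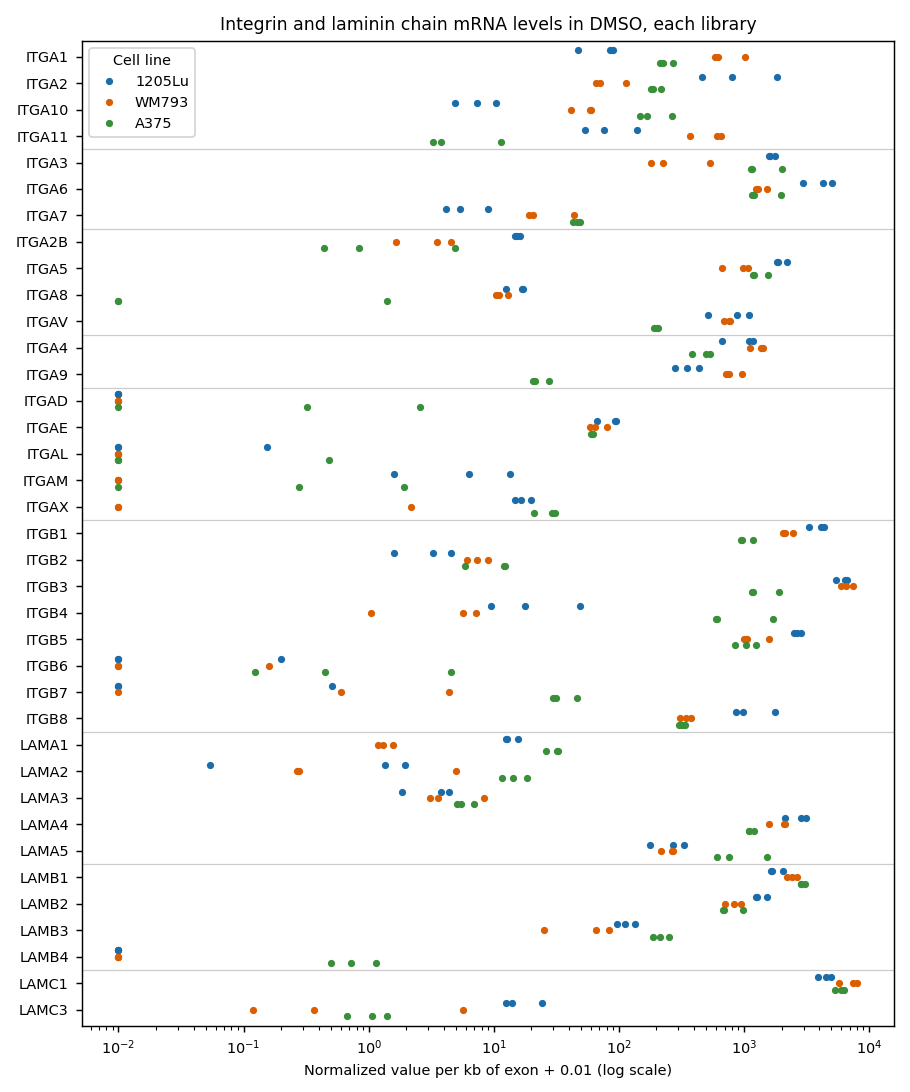
Levels of integrin and laminin chain mRNAs in DMSO. Each point is 1 library, the x axis is the normalized value per kb of exon plus 0.01 on a log scale, colours give the line, and members are grouped by role. LAMC1 and ITGB3 lie furthest right in WM793, and points at the left edge are listed at 0.

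The lines differed in many chains in DMSO, by limma with Benjamini-Hochberg adjustment over 26779 genes. Between 1205Lu and WM793, 24 members differed (30.7% of all genes did), 16 of them higher in 1205Lu. Between 1205Lu and A375, 31 differed (46.8% of all genes), and between WM793 and A375, 24 (47.5% of all genes). ITGA11, encoding a collagen receptor chain, was 7172, 6572 and 4052 in WM793, 1507, 580 and 824 in 1205Lu and 35.2, 40.8 and 125 in A375, with no overlap between lines. ITGA2, the α chain of the α2β1 collagen receptor, ran in another order, with 14433, 3624 and 6306 in 1205Lu, 1487, 1419 and 1727 in A375 and 901, 556 and 523 in WM793, again without overlap. ITGB4, the β chain of the hemidesmosomal α6β4 laminin receptor, was 4011, 4134 and 11510 in A375, 64.7, 328 and 120 in 1205Lu and 6.97, 49.1 and 38 in WM793. It was thus highest in A375, with log2 differences from A375 of -5.38 ± 0.68, adjusted p = 8.23e-08 in 1205Lu and -7.85 ± 0.68, adjusted p = 4.86e-11 in WM793. ITGAV, ITGB1, ITGB3, ITGA4 and LAMA4 were each lower in A375 than in both other lines, by 0.76 to 2.27 log2 units.

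BRAFi + MEKi changed members of this family in every line, and in 1205Lu and A375 more fell than rose. In 1205Lu, 13 of 35 tested members (37.1%, beside 30.9% of all genes) passed an adjusted p of 0.05, 2 raised and 11 lowered, where 16.5% of all genes were raised and 14.4% lowered. In WM793, 14 of 34 passed (41.2%, beside 37.3% of all genes), 8 raised and 6 lowered, beside 20.4% and 16.9% of all genes. In A375, 20 of 38 passed (52.6%, beside 39.5% of all genes), 6 raised and 14 lowered, beside 20.5% and 19% of all genes. The lowered share of members was 31.4%, 17.6% and 36.8% in the 3 lines, of which that in WM793 was near the share of all genes. Median log2 differences over the tested members were -0.26, 0.02 and -0.65, against 0.11, 0.15 and 0.06 over all genes. In bulk libraries, fewer cells of a kind and less RNA per cell cannot be told apart. Log2 differences are on the log2(value + 1) scale, which understates the change of low genes.

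**Figure D2:**
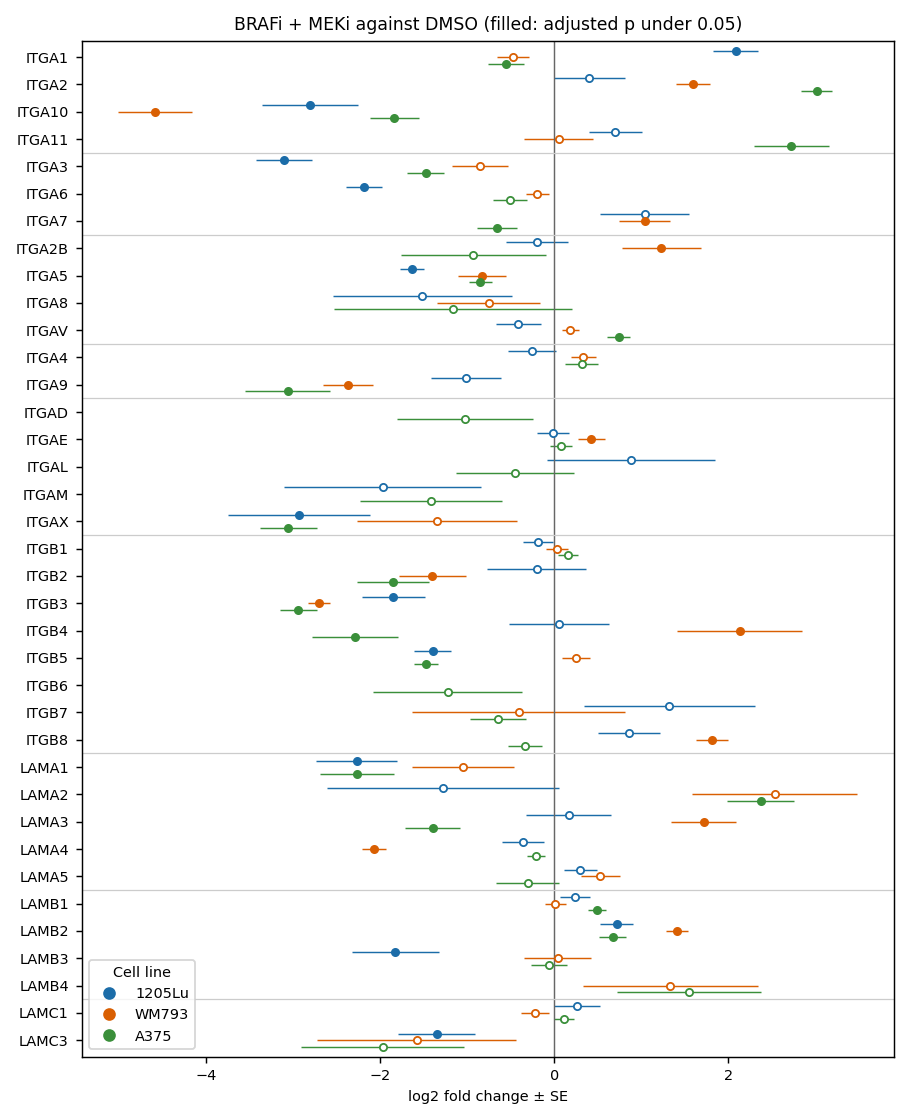
Effect of BRAFi + MEKi on integrin and laminin chain mRNAs. The x axis is the log2 difference, BRAFi + MEKi minus DMSO, with its SE as the bar, colours give the line, and filled points passed an adjusted p of 0.05. ITGB3, ITGA10 and ITGA5 are filled left of 0 and LAMB2 right of 0 in all 3 lines, and ITGA1, ITGA7, ITGB4 and LAMA3 have filled points on both sides.

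Of the 38 members, 27 were called in at least 1 line and 11 in none, and 4 were called in the same direction in all 3 lines, ITGB3, ITGA10 and ITGA5 lowered and LAMB2 raised. Over the 26779 genes tested in any line, 55.5% were called in at least 1 line, 4.4% were lowered in all 3 and 4.18% raised in all 3. ITGB3 (chr17:47253827-47313743 in GRCh38, plus strand) encodes β3, the partner of αV in a vitronectin receptor and of αIIb in platelets. In 1205Lu it was 44072, 37462 and 45615 in DMSO and 22312, 8120 and 8906 under BRAFi + MEKi, with replicate 1 the least affected. In WM793 it went from 44362, 50883 and 40896 to 8490, 6684 and 5921, and in A375 from 7909, 8090 and 12981 to 1358, 1397 and 964. Groups did not overlap in any line. The log2 differences were -1.85 ± 0.36, adjusted p = 0.00165 in 1205Lu, -2.70 ± 0.13, adjusted p = 1.55e-08 in WM793 and -2.94 ± 0.22, adjusted p = 2.33e-07 in A375. Another annotated gene overlaps ITGB3 on the same strand, and reads of shared exons could be assigned to either.

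ITGAV, the main partner of β3, showed another pattern. In A375 it was 3881, 3987 and 3680 in DMSO and 6947, 6707 and 5714 under BRAFi + MEKi, a rise without overlap (0.74 ± 0.13, adjusted p = 0.000485). It did not pass in WM793 (0.18 ± 0.10, adjusted p = 0.151, but 0.39, adjusted p = 0.00688 after rescaling the libraries to 1 total) or 1205Lu (-0.41 ± 0.26, adjusted p = 0.261). In 1205Lu it passed as lower without 1205Lu DMSO replicate 2 (-0.72, adjusted p = 0.0393) or with the replicate as a block (adjusted p = 0.0451). ITGB5, whose product forms another vitronectin receptor with αV, fell without overlap in 1205Lu, from 16475, 17293 and 18771 to 5797, 6873 and 7376 (-1.40 ± 0.21, adjusted p = 0.000273). It fell in A375 too, from 5494, 6777 and 8159 to 2479, 2290 and 2506 (-1.47 ± 0.14, adjusted p = 2.01e-06), while in WM793 it overlapped at 10381, 6938 and 6551 against 8427, 9449 and 9866 (0.25 ± 0.16, adjusted p = 0.255). The ITGB5 response in WM793 differed from that in 1205Lu and A375, by -1.64 ± 0.26, adjusted p = 5.04e-05 for 1205Lu minus WM793 and 1.72 ± 0.26, adjusted p = 1.27e-05 for WM793 minus A375. Without WM793 DMSO replicate 1, ITGB5 passed as higher in WM793 (0.45, adjusted p = 0.0165). ITGB8, whose product pairs with αV and activates latent TGF-β, rose in WM793 from 5212, 5726 and 4662 to 18314, 19969 and 16609 (1.82 ± 0.18, adjusted p = 5.1e-06). In 1205Lu, ITGB8 overlapped (0.86 ± 0.36, adjusted p = 0.0848) but was higher with the inhibitors in each replicate pair. There it passed without DMSO replicate 1 (1.17, adjusted p = 0.0306) and with the replicate as a block (adjusted p = 0.00108). In A375 its groups were apart (-0.34 ± 0.20, adjusted p = 0.191, but adjusted p = 0.0143 with only the libraries compared).

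ITGA10 and ITGA5 also fell in every line. ITGA10, a collagen receptor chain best known from cartilage, went in WM793 from 261, 377 and 369 to 10.9, 12.5 and 15.6 (-4.58 ± 0.42, adjusted p = 2.33e-06). In A375 it went from 925, 1049 and 1656 to 269, 303 and 430 (-1.84 ± 0.28, adjusted p = 0.000151), and in 1205Lu from 30.4, 46.1 and 65 to 9.21, 2.93 and 6.04 (-2.81 ± 0.55, adjusted p = 0.00163). No groups overlapped, and the fall in WM793 was deeper than in A375 by -2.75 ± 0.59, adjusted p = 0.000887 (WM793 minus A375). ITGA5, the α chain of the fibronectin receptor α5β1, went from 16178, 13498 and 13819 to 4732, 4845 and 4404 in 1205Lu (-1.63 ± 0.14, adjusted p = 2.05e-06). In A375 it went from 8673, 8890 and 11537 to 5478, 5589 and 4973 (-0.85 ± 0.14, adjusted p = 0.000213), again with the groups apart. WM793 gave 4961, 7953 and 7282 against 2565, 4703 and 4212 (-0.83 ± 0.28, adjusted p = 0.0292), a call lost without WM793 DMSO replicate 2 or 3 or BRAFi + MEKi replicate 1 (log2 difference -0.76 to -0.57, adjusted p 0.0802 to 0.131), after rescaling to equal totals (adjusted p = 0.072) and when only the libraries compared were fitted (adjusted p = 0.0933).

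LAMB2 alone was raised in all 3 lines. It encodes laminin β2, the β chain of synaptic and glomerular laminins. Its values went from 8761, 10410 and 8588 to 13808, 16334 and 15523 in 1205Lu (0.72 ± 0.19, adjusted p = 0.0107), and from 4878, 5669 and 6514 to 14016, 15489 and 15640 in WM793 (1.41 ± 0.13, adjusted p = 1.88e-06). In A375 they went from 4789, 6771 and 4674 to 8891, 9108 and 7555 (0.67 ± 0.15, adjusted p = 0.00329). The groups were apart in each line. The rise in WM793 exceeded that in A375 by 0.74 ± 0.24, adjusted p = 0.022, a call lost without WM793 DMSO replicate 1, A375 DMSO replicate 2 or A375 BRAFi + MEKi replicate 3 (log2 difference 0.57 to 0.66, adjusted p 0.0599 to 0.0891).

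Sequence just upstream of ITGA5, ITGA10 and LAMB2 is shown because these genes moved alike in all lines, 5′ to 3′ on the gene's strand (minus for each), from RefSeq on GRCh38.p14. The stretches are chr12:54419267-54419516 (ITGA5), chr1:145910112-145910300 (ITGA10) and chr3:49133119-49133300 (LAMB2), each outside the annotated gene. The promoter table matched 26 members. Capitals mark GGAATG or its reverse complement, the core letters bound by TEAD factors, which the LAMB2 stretch does not hold.
ITGA5: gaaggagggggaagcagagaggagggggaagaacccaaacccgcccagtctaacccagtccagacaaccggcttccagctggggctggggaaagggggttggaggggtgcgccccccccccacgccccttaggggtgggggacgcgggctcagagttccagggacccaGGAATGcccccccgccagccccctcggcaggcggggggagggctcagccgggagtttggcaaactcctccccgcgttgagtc
ITGA10: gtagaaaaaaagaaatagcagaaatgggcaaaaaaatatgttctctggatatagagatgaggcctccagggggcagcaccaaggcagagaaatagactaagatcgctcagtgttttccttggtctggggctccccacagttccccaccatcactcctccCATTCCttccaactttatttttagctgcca
LAMB2: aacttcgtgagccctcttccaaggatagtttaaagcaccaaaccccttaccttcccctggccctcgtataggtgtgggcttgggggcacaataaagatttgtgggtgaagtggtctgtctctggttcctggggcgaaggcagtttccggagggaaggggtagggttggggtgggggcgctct
In the 250 bases before the RefSeq start, GGAATG on either strand was found for ITGA5, ITGA10, ITGB1 and LAMA2, and in 11.9% of all 35116 promoter entries. The AP-1 letters TGANTCA were found for LAMA3 and LAMB3 (6.57% of entries), the NR2F half-site AGGTCA for ITGAV and LAMA2 (12.1%), and the MITF letters CATGTG for ITGAE, ITGB7 and LAMA3 (9.42%), where the LAMA3 match overlaps an AP-1 match. The members held 33 entries, and a gene with several was named if any of them matched. The matches of ITGAV, ITGB1, LAMA3 and LAMB3 lay inside the annotated gene, before a RefSeq start within it. These matches describe letters in the window, not binding.

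**Figure D3:**
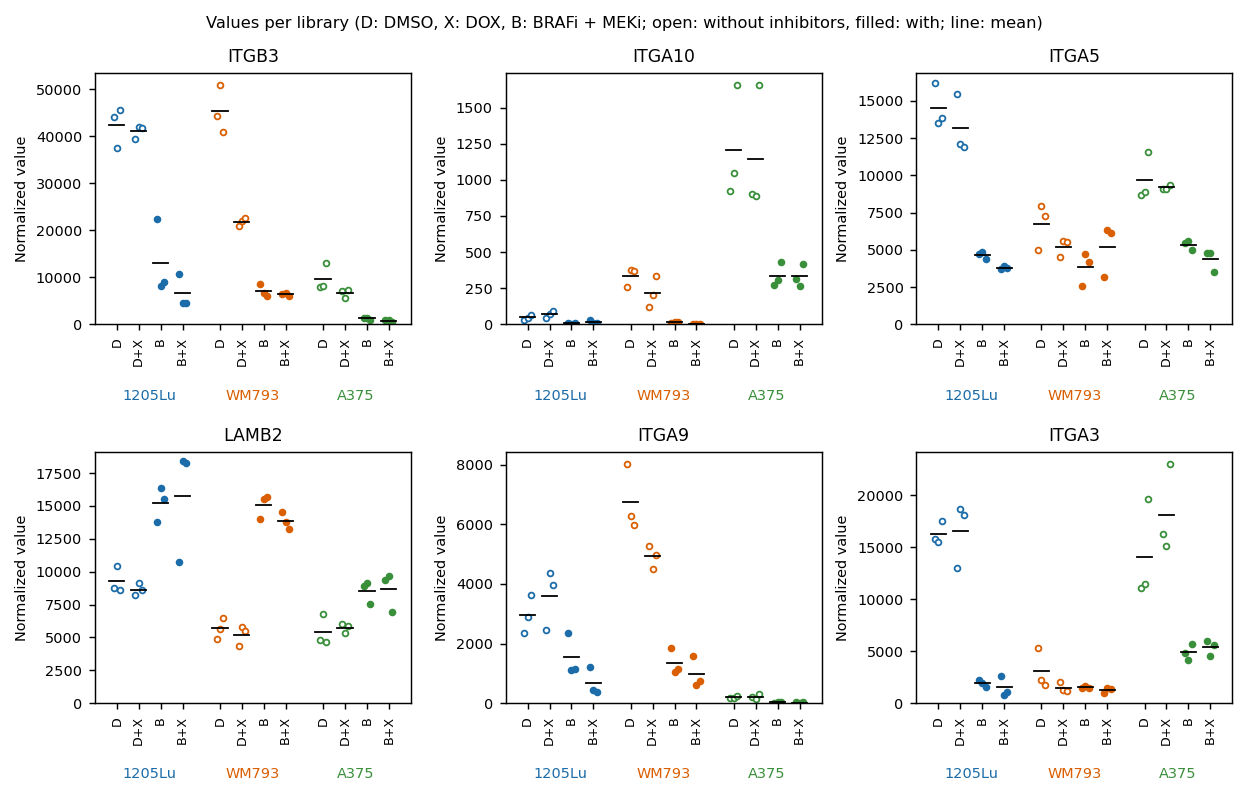
Values per library of ITGB3, ITGA10, ITGA5, LAMB2, ITGA9 and ITGA3 in the 12 groups. The y axis is the normalized value from 0, D is DMSO, X is DOX and B is BRAFi + MEKi, points are libraries, filled with inhibitors and open without, and bars are group means. ITGB3 falls below its DMSO libraries in every line with inhibitors, and in WM793 it is also lower with DOX alone, at 20909, 22051 and 22548.

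The other collagen-binding chains moved differently by line. ITGA1, the α chain of the α1β1 collagen receptor, rose in 1205Lu from 1677, 868 and 1588 to 5242, 4655 and 7214 (2.08 ± 0.26, adjusted p = 6.32e-05). In A375 it went from 3953, 4185 and 5045 to 3769, 3513 and 2001, a fall that just passed (-0.55 ± 0.20, adjusted p = 0.0452) and was lost without any 1 of the A375 DMSO libraries or BRAFi + MEKi replicate 3 (log2 difference -0.62 to -0.26, adjusted p 0.0579 to 0.196). WM793 gave 19028, 11480 and 10823 against 9237, 10411 and 9228 (-0.47 ± 0.19, adjusted p = 0.0625), which passed without DMSO replicate 2 (-0.58, adjusted p = 0.0472) or 3 (-0.62, adjusted p = 0.0251). Rescaling to equal totals (adjusted p = 0.141) and fitting only the libraries compared (adjusted p = 0.147) also ended the A375 call. The 1205Lu response differed from both others, by 2.55 ± 0.35, adjusted p = 6.58e-06 from WM793 and 2.63 ± 0.35, adjusted p = 5.02e-06 from A375. PELO lies within ITGA1 on the same strand, and its part in these values was not tested.

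ITGA2 rose in A375 and WM793. In A375 it went from 1487, 1419 and 1727 to 14588, 14030 and 9378 (3.01 ± 0.18, adjusted p = 3.26e-08), the largest rise among the members called, and in WM793 from 901, 556 and 523 to 1880, 2066 and 1862 (1.59 ± 0.19, adjusted p = 2.41e-05). In 1205Lu it overlapped at 14433, 3624 and 6306 against 10368, 7195 and 10220 (95% interval -0.47 to 1.27), and that response was below the one in A375 by -2.61 ± 0.45, adjusted p = 0.000156. ITGA11 rose in A375 from 35.2, 40.8 and 125 to 374, 519 and 282 (2.73 ± 0.43, adjusted p = 0.000206). In 1205Lu it overlapped (0.70 ± 0.30, adjusted p = 0.0957). It passed there as higher without DMSO replicate 1 (1.08, adjusted p = 0.00887) or with the replicate as a block (adjusted p = 0.012). In WM793 the 95% interval of its difference was -0.80 to 0.90, and the responses differed by -2.68 ± 0.61, adjusted p = 0.00162 (WM793 minus A375).

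ITGA3 and ITGA6, both laminin receptor chains, fell more in 1205Lu than in the other lines. ITGA3, the α chain of the α3β1 laminin receptor, dropped there from 15744, 15501 and 17530 to 2186, 1950 and 1560, or 8.63-fold (-3.11 ± 0.32, adjusted p = 1.25e-05). It fell in A375 from 11092, 11478 and 19608 to 4826, 4164 and 5729 (-1.48 ± 0.21, adjusted p = 9.38e-05), less than in 1205Lu (-1.63 ± 0.47, adjusted p = 0.017, 1205Lu minus A375), and the response in 1205Lu also exceeded that in WM793 (-2.25 ± 0.47, adjusted p = 0.00108, 1205Lu minus WM793). WM793 had 5282, 2207 and 1775 against 1491, 1654 and 1417, apart but just short of the threshold (-0.85 ± 0.32, adjusted p = 0.0514). It passed there without DMSO replicate 2 (-1.01, adjusted p = 0.0471) or 3 (-1.17, adjusted p = 0.0119). ITGA6, the α chain of α6β1 and α6β4, went in 1205Lu from 19863, 28878 and 33658 to 4581, 6656 and 6751 (-2.18 ± 0.21, adjusted p = 6.73e-06). It did not pass in WM793 (-0.19 ± 0.13, adjusted p = 0.267) or A375 (-0.51 ± 0.20, adjusted p = 0.0578), although in A375 it passed without DMSO replicate 1 (-0.65, adjusted p = 0.0362) or 2 (-0.62, adjusted p = 0.0478). The ITGA6 response in 1205Lu was deeper than in WM793 (-1.99 ± 0.28, adjusted p = 9.02e-06) and A375 (-1.67 ± 0.28, adjusted p = 0.000105).

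ITGA7, a muscle laminin receptor chain, was called in opposite directions in WM793 and A375. WM793 went from 398, 172 and 188 to 387, 606 and 482, overlapping through DMSO replicate 1 (1.04 ± 0.29, adjusted p = 0.0124), and A375 from 446, 393 and 420 to 303, 248 and 249 (-0.66 ± 0.23, adjusted p = 0.0337). The WM793 call was lost without DMSO replicate 2 or BRAFi + MEKi replicate 2 (log2 difference 0.82 to 0.88, adjusted p 0.0583 to 0.0602), and the A375 call without any 1 library except BRAFi + MEKi replicate 1 (log2 difference -0.70 to -0.61, adjusted p 0.0575 to 0.1). It was lost in WM793 when only the libraries compared were fitted (adjusted p = 0.0964) and in A375 after rescaling (adjusted p = 0.0988). Genes on the opposite strand overlap ITGA7, and the library kit does not mark strand. Protein-coding genes on the opposite strand also overlap ITGA4, ITGAE, ITGB4, ITGB7, LAMA4, LAMA5 and LAMB1. ITGB4, the partner of α6, also went both ways. In A375 it fell from 4011, 4134 and 11510 to 709, 838 and 2721 (-2.29 ± 0.50, adjusted p = 0.00215), with replicate 3 the highest of both groups. In WM793 it rose from 6.97, 49.1 and 38 to 89.7, 159 and 88.7 (2.13 ± 0.72, adjusted p = 0.0321), a call lost without DMSO replicate 1 or any 1 BRAFi + MEKi library (log2 difference 1.31 to 2.27, adjusted p 0.0542 to 0.132) or with only the libraries compared (adjusted p = 0.101). The responses differed by 4.42 ± 0.96, adjusted p = 0.000953 (WM793 minus A375).

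ITGA9 encodes α9, which pairs with β1 to bind tenascin-C and osteopontin. It fell in WM793 from 8014, 6271 and 5978 to 1834, 1030 and 1153 (-2.37 ± 0.29, adjusted p = 2.63e-05) and in A375 from 171, 176 and 228 to 12.8, 26.2 and 30.7 (-3.06 ± 0.49, adjusted p = 0.000225). In 1205Lu, 2345, 2888 and 3613 became 2358, 1101 and 1140, with BRAFi + MEKi replicate 1 inside the DMSO range (-1.02 ± 0.40, adjusted p = 0.0699). Without that library it passed (-1.37, adjusted p = 0.0254). ITGA4, its closest relative and a VCAM1 receptor chain, was called in no line, with differences of -0.26 ± 0.28 in 1205Lu, 0.33 ± 0.15 in WM793 and 0.32 ± 0.19 in A375. After rescaling it passed in WM793 (0.54, adjusted p = 0.00685).

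Some transcripts known mainly from leukocytes were present at low levels and fell. ITGAX, encoding CD11c, went in A375 from 206, 220 and 147 to 17.1, 23.3 and 26 (-3.05 ± 0.33, adjusted p = 7.91e-06). In 1205Lu it went from 117, 104 and 140 to 51.2, 19 and 2.75 (-2.94 ± 0.81, adjusted p = 0.0142), a call lost without BRAFi + MEKi replicate 3 (log2 difference -1.90, adjusted p = 0.0618) or with only the libraries compared (adjusted p = 0.0803). In WM793 it was listed at 0 in all BRAFi + MEKi libraries and in all DMSO libraries but replicate 3. ITGB2, the β chain that CD11c pairs with, fell in WM793 from 66, 53.6 and 44.5 to 20.7, 19.4 and 19.4 (-1.40 ± 0.39, adjusted p = 0.0113) and in A375 from 87.8, 89.2 and 42.6 to 24, 13.6 and 19.5 (-1.85 ± 0.41, adjusted p = 0.00279). In 1205Lu it overlapped (-0.20 ± 0.56, adjusted p = 0.823). ITGAE, encoding CD103, rose in WM793 from 530, 427 and 385 to 687, 576 and 536 (0.43 ± 0.16, adjusted p = 0.0483), a call lost without DMSO replicate 2 or 3 or BRAFi + MEKi replicate 1 or 2 (log2 difference 0.32 to 0.45, adjusted p 0.081 to 0.161). That call was also lost with no filter (adjusted p = 0.0525) or only the libraries compared (adjusted p = 0.111). LAPTM5, a leukocyte marker, moved with ITGAX in 1205Lu, from 79.2, 115 and 93 to 17.8, 7.88 and 15 (-2.79 ± 0.68, adjusted p = 0.00707). In A375 LAPTM5 went from 29.5, 37.2 and 44.7 to 18.3, 16.9 and 17.3 (-1.02 ± 0.40, adjusted p = 0.0553), and PTPRC was listed at 0 in all DMSO libraries and at 27, 22.3 and 6.54 under BRAFi + MEKi. CD3E and CD14 were under 10 in every library. CD68 went in 1205Lu from 2189, 2409 and 1919 to 487, 582 and 353. In WM793, where ITGB2 fell, CD68 was higher, from 345, 513 and 425 to 517, 989 and 845. In A375 it went from 3627, 3884 and 4427 to 6429, 6319 and 3200. The part of other cell types in these results was not tested.

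Laminin α chains also differed by line. LAMA4, the α chain of vascular laminins, fell in WM793 from 25641, 25049 and 19079 to 6181, 4610 and 5768 (-2.07 ± 0.14, adjusted p = 1.63e-07). It did not pass in 1205Lu (-0.36 ± 0.24, adjusted p = 0.28) or A375 (-0.21 ± 0.10, adjusted p = 0.107), and the WM793 response was deeper, by 1.71 ± 0.25, adjusted p = 1.32e-05 (1205Lu minus WM793) and -1.86 ± 0.25, adjusted p = 1.49e-06 (WM793 minus A375). LAMA1, the embryonic α chain, fell without overlap in 1205Lu from 250, 198 and 203 to 93, 23 and 39.3 (-2.27 ± 0.46, adjusted p = 0.00223) and in A375 from 520, 506 and 415 to 155, 102 and 60 (-2.27 ± 0.43, adjusted p = 0.000808). LAMA3, the α chain of the epidermal laminin-332, rose in WM793 from 121, 44.3 and 51.9 to 155, 203 and 324 (1.71 ± 0.37, adjusted p = 0.00239) and fell in A375 from 73, 100 and 79 to 29.4, 35.6 and 28.5 (-1.40 ± 0.32, adjusted p = 0.00295). With only the libraries compared, the WM793 rise did not pass (adjusted p = 0.0505). Groups were apart in both lines, and the responses differed by 3.11 ± 0.58, adjusted p = 0.000188. LAMA2, the muscle laminin α chain, rose in A375 from 379, 491 and 307 to 2636, 2649 and 1141 (2.37 ± 0.39, adjusted p = 0.000254). In WM793 it overlapped through DMSO replicate 2, at 6.75, 131 and 7.01 against 233, 66.2 and 100 (2.53 ± 0.95, adjusted p = 0.0508), and without that library it passed (3.89, adjusted p = 0.000997). LAMA5 was called in no line, and in WM793 it passed without BRAFi + MEKi replicate 1 (0.79, adjusted p = 0.00867) or after rescaling (0.73, adjusted p = 0.0162).

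Of the chains shared by many laminins, LAMB1 rose in A375, from 53665, 53177 and 57258 to 75417, 76859 and 78176 (0.49 ± 0.11, adjusted p = 0.00217), and in the other lines its intervals were -0.14 to 0.62 and -0.25 to 0.28 for 1205Lu and WM793. LAMC1 was called in no line, with 95% intervals of -0.30 to 0.83 in 1205Lu, -0.58 to 0.13 in WM793 and -0.14 to 0.36 in A375. LAMB3, the β chain of laminin-332, fell in 1205Lu from 631, 452 and 525 to 340, 91.9 and 106 (-1.82 ± 0.50, adjusted p = 0.0126), a call lost without BRAFi + MEKi replicate 2 or 3 (log2 difference -1.58 to -1.48, adjusted p 0.0582 to 0.0624). LAMC3 fell in 1205Lu as well (-1.35 ± 0.44, adjusted p = 0.0316), a call lost without DMSO replicate 2 or BRAFi + MEKi replicate 1 or 3 (log2 difference -1.31 to -1.05, adjusted p 0.075 to 0.132). With only the libraries compared, the 1205Lu calls of LAMB3 (adjusted p = 0.0561) and LAMC3 (adjusted p = 0.0743) were lost.

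ITGB1 was called in no line, along with ITGA4, ITGA8, ITGAD, ITGAL, ITGAM, ITGB6, ITGB7, LAMA5, LAMB4 and LAMC1. It was 63555, 48102 and 59797 against 46204, 50408 and 53037 in 1205Lu, 31217, 35934 and 29728 against 32620, 35449 and 30775 in WM793 and 14011, 13828 and 17280 against 16938, 16122 and 16900 in A375. The groups overlapped each time, and the 95% intervals of the log2 difference were -0.57 to 0.19, -0.23 to 0.29 and -0.09 to 0.40. After rescaling it passed in A375 (0.31, adjusted p = 0.0349). ITGA2B, the αIIb chain of platelets, rose in WM793 from 9.32, 25.8 and 19.9 to 36.2, 35.9 and 53.6 (1.23 ± 0.45, adjusted p = 0.0464), a call lost without any 1 library except DMSO replicate 2 (adjusted p 0.0596 to 0.152). The call was also lost with no filter (adjusted p = 0.0679), a pseudocount of 0.1 (0.0519), the replicate block (0.0539) or only the libraries compared (0.114). Platelet markers summed to at most 22.9 in any library, reached by GP1BA in WM793.

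**Figure D4:**
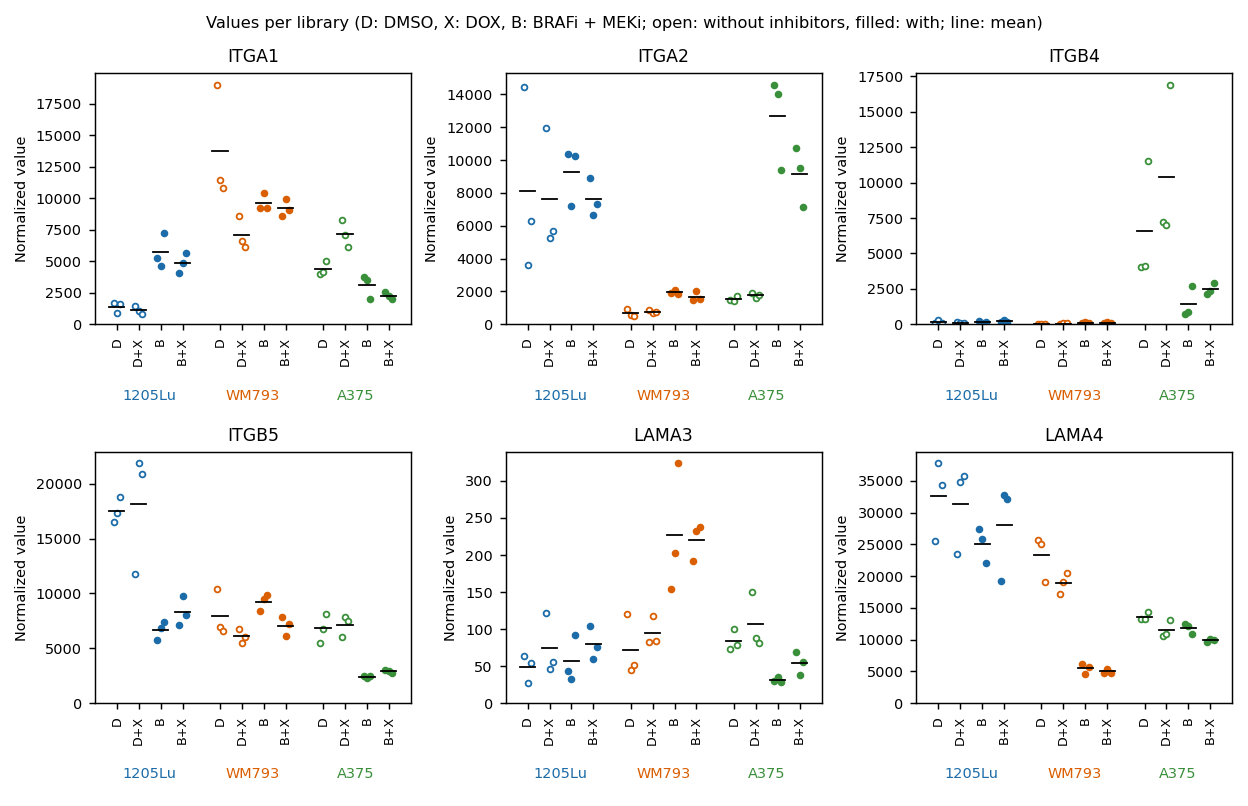
Values per library of ITGA1, ITGA2, ITGB4, ITGB5, LAMA3 and LAMA4, whose response to BRAFi + MEKi differed between lines. The y axis is the normalized value from 0, D is DMSO, X is DOX and B is BRAFi + MEKi, points are libraries, filled with inhibitors and open without, and bars are group means. LAMA4 falls in WM793 under BRAFi + MEKi, to 6181, 4610 and 5768, and ITGA2 climbs in A375, to 14588, 14030 and 9378.

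Over all members, the inhibitor response differed between 1205Lu and WM793 for 8 (14.5% of all genes), 3 higher and 5 lower in 1205Lu, beside 6.52% and 7.94% of all genes. It differed between 1205Lu and A375 for 10 (14.7% of all genes), 4 higher and 6 lower, beside 8.08% and 6.65%, and between WM793 and A375 for 11 (22.8% of all genes), 6 higher and 5 lower, beside 12.7% and 10.1%.

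The inhibitor effect was measured again in separate libraries, BRAFi + MEKi + DOX against DMSO + DOX. There, 1205Lu had 15 members called (28.2% of all genes), 3 raised and 12 lowered, beside 15.1% and 13.2% of all genes. WM793 had 12 (31.7% of all genes), 7 raised and 5 lowered, beside 16.7% and 15.1%. A375 had 18 (31% of all genes), 5 raised and 13 lowered, beside 16.2% and 14.8%. In 1205Lu, 10 members were called in both DOX states, 76.9% of those called without DOX and 66.7% of those called with it. In WM793 it was 9 members (64.3% and 75%) and in A375 16 (80% and 88.9%). Over all genes called, the shares were 67% and 73.3% in 1205Lu, 69.9% and 82.1% in WM793 and 67.1% and 85.4% in A375. The members called in both states moved the same way in both, and 0 members called in either had the opposite sign in the other. ITGB3 fell from 39330, 42008 and 41695 to 10766, 4437 and 4532 in 1205Lu, from 20909, 22051 and 22548 to 6346, 6712 and 6041 in WM793 and from 6998, 5514 and 7179 to 894, 803 and 567 in A375, again without overlap. ITGA9, called in WM793 and A375 without DOX, was lowered in all 3 lines here (-2.58 ± 0.40, adjusted p = 0.000371 in 1205Lu, -2.45 ± 0.29, adjusted p = 2.8e-05 in WM793 and -3.46 ± 0.49, adjusted p = 0.000144 in A375).

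ITGA10 fell in all lines with DOX as well (-2.20 ± 0.55, adjusted p = 0.00882 in 1205Lu, -5.70 ± 0.42, adjusted p = 6.45e-07 in WM793 and -1.75 ± 0.28, adjusted p = 0.000363 in A375), as did ITGA6 (-2.74 ± 0.21, adjusted p = 1.23e-06, -0.74 ± 0.13, adjusted p = 0.000647 and -1.14 ± 0.20, adjusted p = 0.000695). LAMB2 rose in 1205Lu (0.83 ± 0.19, adjusted p = 0.00536), WM793 (1.42 ± 0.13, adjusted p = 2.67e-06) and A375 (0.58 ± 0.15, adjusted p = 0.0112), where leaving out BRAFi + MEKi + DOX replicate 1 or 2 ended the A375 call (log2 difference 0.49 to 0.51, adjusted p 0.0508 to 0.0524) and fitting only the libraries compared ended the 1205Lu call (adjusted p = 0.0569). ITGA5 in WM793 overlapped, at 4519, 5573 and 5506 against 3142, 6328 and 6159 (-0.06 ± 0.28, adjusted p = 0.903). LAMA5, called in no line without DOX, rose here in 1205Lu from 2446, 2285 and 2870 to 4759, 4977 and 5425 (1.00 ± 0.19, adjusted p = 0.0016). Its groups did not overlap, and the call was kept under all 11 alternatives. ITGB1 was lower in 1205Lu (-0.54 ± 0.18, adjusted p = 0.0354), a call lost without any 1 of its 6 libraries (adjusted p 0.0543 to 0.107), after rescaling (adjusted p = 0.0568), with no filter (adjusted p = 0.0606) or with only the libraries compared (adjusted p = 0.0654). In this setting 5 members were raised in 1 line or more and lowered in another, ITGA1, ITGA4, ITGAV, LAMA3 and LAMB3 (2.65% of all genes did so). LAMA3 was higher in WM793 (1.22 ± 0.37, adjusted p = 0.0215) and lower in A375 (-0.94 ± 0.32, adjusted p = 0.0359). Leaving out DMSO + DOX replicate 1 or 3 or BRAFi + MEKi + DOX replicate 2 or 3 ended the LAMA3 call in WM793 (adjusted p 0.0682 to 0.0706). In A375 it ended without DMSO + DOX replicate 1 or 2 or BRAFi + MEKi + DOX replicate 2 or 3 (adjusted p 0.0506 to 0.148), after rescaling (adjusted p = 0.0701) or with only the libraries compared (adjusted p = 0.112). LAMB3 was higher in WM793 (1.24 ± 0.38, adjusted p = 0.0248), a call that ended without any of the same 4 WM793 libraries (adjusted p 0.055 to 0.107), and lower in 1205Lu (-1.95 ± 0.50, adjusted p = 0.00975), a call lost with only the libraries compared (adjusted p = 0.0521). ITGA1 was higher in 1205Lu (2.15 ± 0.26, adjusted p = 6.01e-05) and lower in A375 (-1.66 ± 0.20, adjusted p = 4.45e-05), and no library left out ended either call. ITGAV was higher in WM793 (0.47 ± 0.10, adjusted p = 0.00195) and A375 (0.50 ± 0.13, adjusted p = 0.00957) and lower in 1205Lu (-0.88 ± 0.26, adjusted p = 0.0225). Leaving out BRAFi + MEKi + DOX replicate 1 ended the A375 call (log2 difference 0.41, adjusted p = 0.0538), as did fitting only the libraries compared (adjusted p = 0.0721). The 1205Lu call was lost without DMSO + DOX replicate 1 or BRAFi + MEKi + DOX replicate 2 or 3 (log2 difference -0.87 to -0.72, adjusted p 0.0629 to 0.0915) or after rescaling (adjusted p = 0.053). In A375 ITGA4 rose from 3931, 3322 and 2067 to 8381, 8201 and 7493 (1.42 ± 0.19, adjusted p = 8.28e-05), and in 1205Lu it fell (-0.88 ± 0.28, adjusted p = 0.0292), a call lost without DMSO + DOX replicate 2 or 3 or BRAFi + MEKi + DOX replicate 2 or 3 (log2 difference -0.86 to -0.78, adjusted p 0.0794 to 0.102) or after rescaling (adjusted p = 0.0613).

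DOX alone, added to DMSO, changed few members. By limma, 0 were called in 1205Lu and 0 in A375, where 0.00903% and 0.0492% of all genes were called (in A375, 0.0164% raised and 0.0328% lowered) and 2 and 7 members had an unadjusted p under 0.05. In WM793, 2 of 34 members were lowered, beside 0.322% of all genes lowered and 0.512% called in either direction. ITGB3 went there from 44362, 50883 and 40896 to 20909, 22051 and 22548, without overlap (-1.05 ± 0.13, adjusted p = 0.00452), a call lost when only the libraries compared were fitted (adjusted p = 0.0838). ITGB3 differed by -0.04 ± 0.36 in 1205Lu and -0.53 ± 0.22 in A375. ITGA1 went in WM793 from 19028, 11480 and 10823 to 8631, 6591 and 6116 (-0.92 ± 0.19, adjusted p = 0.0498), a call lost without any 1 library except DMSO replicate 3 (log2 difference -1.07 to -0.66, adjusted p 0.063 to 0.201), after rescaling (adjusted p = 0.0603) and with only the libraries compared (adjusted p = 0.412). In A375, ITGA1 was 3953, 4185 and 5045 in DMSO and 8315, 7060 and 6163 with DOX, apart and higher but not called (0.71 ± 0.20, adjusted p = 0.389). ITGA11 in A375 was 35.2, 40.8 and 125 against 166, 167 and 306 (1.83 ± 0.43, adjusted p = 0.238), and without DMSO replicate 3 it passed (2.40, adjusted p = 0.0241).

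Under BRAFi + MEKi, DOX brought 0 members past the threshold in each line by limma. The share of all genes called was 0.334% for 1205Lu, 0.204% for WM793 and 1.52% for A375 (1.37% higher and 0.152% lower with DOX), while 4, 4 and 7 members had an unadjusted p under 0.05. By the correlation rule given below, replicate numbers were taken as pairing the libraries of this comparison in 1205Lu and WM793. A fit with the replicate as a block called 1 and 2 members there (1.64% and 0.575% of all genes). ITGB8 in 1205Lu went from 40891, 25417 and 30136 to 23756, 14937 and 15755, lower with DOX in each replicate pair (-0.83 ± 0.36, adjusted p = 0.465, and -0.83 with an adjusted p of 0.0208 with the block). ITGA4 in WM793 went from 16725, 17914 and 17534 to 10383, 12134 and 13833 (-0.53 ± 0.15, adjusted p = 0.248, and -0.53 with an adjusted p of 0.0299 with the block). ITGA10 in WM793 went from 10.9, 12.5 and 15.6 to 1.75, 4.15 and 3.16 (-1.83 ± 0.42, adjusted p = 0.148, and -1.83 with an adjusted p of 0.0487 with the block). In A375, which missed the pairing rule, the block called 2 members (2.47% of all genes). LAMA2 went there from 2636, 2649 and 1141 to 1189, 1076 and 586, lower in each pair (-1.14, adjusted p = 0.00242 with the block). ITGB4 went from 709, 838 and 2721 to 2133, 2364 and 2942, higher in each pair (1.07, adjusted p = 0.0224 with the block). In 1205Lu, replicate 1 was the highest both with and without DOX for ITGB3, at 22312, 8120 and 8906 without DOX and 10766, 4437 and 4532 with it, and ITGB3 was lower with DOX in each replicate pair (-0.97 ± 0.36, adjusted p = 0.366). ITGA9 was likewise lower in each pair, at 2358, 1101 and 1140 against 1209, 433 and 376 (-1.30 ± 0.40, adjusted p = 0.227). ITGA3, at 2186, 1950 and 1560 against 2651, 816 and 1083, was higher with DOX in replicate 1 and lower in the others (-0.50 ± 0.32, adjusted p = 0.683). Leaving out BRAFi + MEKi + DOX replicate 1 alone, with its partner kept, ITGB3 (-1.39, adjusted p = 0.0371), ITGA9 (-1.83, adjusted p = 0.0115) and ITGA3 (-0.9995, adjusted p = 0.0169) passed as lower with DOX. In A375, leaving out BRAFi + MEKi replicate 3 brought in ITGA1 (-0.69, adjusted p = 0.0313) and ITGA2 (-0.67, adjusted p = 0.0463).

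**Figure D5:**
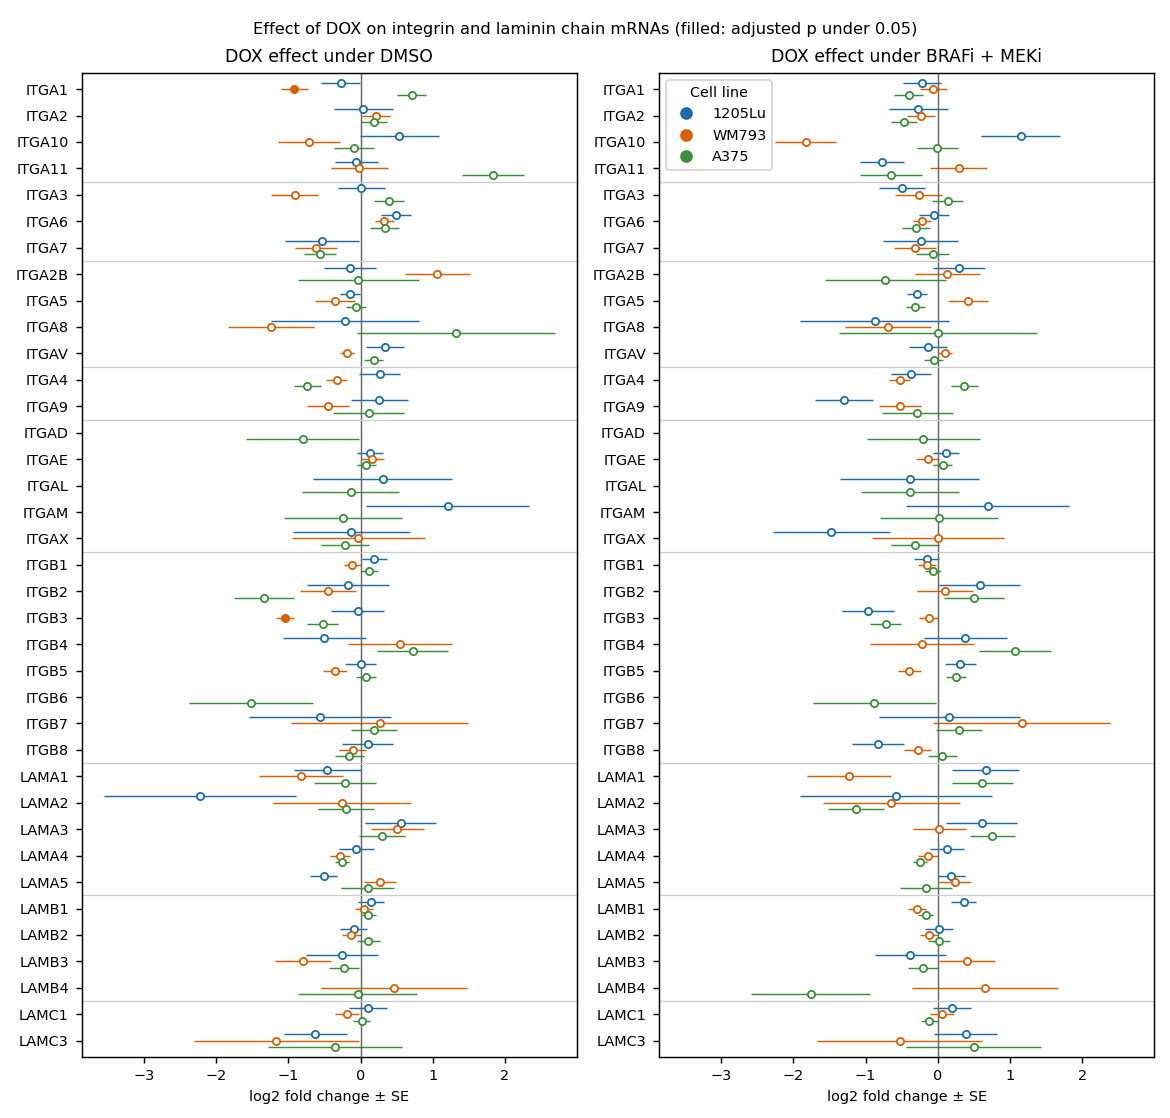
Effect of DOX on integrin and laminin chain mRNAs under DMSO and under BRAFi + MEKi. The x axes are log2 differences, with DOX minus without, bars are SE, colours give the line, and filled points passed an adjusted p of 0.05. The filled points are ITGB3 and ITGA1 in WM793 under DMSO.

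The difference of the DOX effect between the inhibitor and DMSO backgrounds was tested as an interaction term. It called 0 members in each line by limma (0%, 0% and 0.46% of all genes in 1205Lu, WM793 and A375, the last split into 0.439% higher and 0.0205% lower), with 2, 4 and 6 members at an unadjusted p under 0.05. In A375, 3 members passed when 1 library was left out, namely ITGA1 without BRAFi + MEKi replicate 3 (-1.40, adjusted p = 0.00494), ITGA11 without DMSO replicate 3 (-3.05, adjusted p = 0.0258) and ITGA4 without DMSO + DOX replicate 1 (1.30, adjusted p = 0.0391). Between lines, the DOX effect under BRAFi + MEKi differed for ITGA10 between 1205Lu and WM793 (2.98 ± 0.59, adjusted p = 0.0324, 0.138% of all genes called). ITGA10 was 9.21, 2.93 and 6.04 without DOX and 26.2, 11.3 and 8.13 with it in 1205Lu, which overlapped. The call was lost without 1205Lu BRAFi + MEKi + DOX replicate 2, WM793 BRAFi + MEKi replicate 2 or 3, or WM793 BRAFi + MEKi + DOX replicate 1 (adjusted p 0.0527 to 0.0718) or with only the libraries compared (adjusted p = 0.414). For 1205Lu against A375 and WM793 against A375, 0 members differed by limma (0.179% and 0.881% of all genes did), with 3 and 6 at an unadjusted p under 0.05. With the replicate block, LAMB1 passed beside ITGA10 between 1205Lu and WM793 (0.64, adjusted p = 0.0187, 0.609% of all genes called). Without 1205Lu BRAFi + MEKi + DOX replicate 1, LAMB1 differed between 1205Lu and WM793 (0.80, adjusted p = 0.0102) and between 1205Lu and A375 (0.68, adjusted p = 0.0283). With only the libraries compared, ITGA4 differed between WM793 and A375 (-0.90, adjusted p = 0.0267), as did ITGA5 without WM793 BRAFi + MEKi + DOX replicate 1 (1.06, adjusted p = 0.043).

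Genes that work with these chains were followed through 3 lists. Of 33 adhesion plaque genes, BRAFi + MEKi raised 7 and lowered 8 of 31 tested in 1205Lu, raised 13 and lowered 6 of 32 in WM793 and raised 7 and lowered 16 of 33 in A375, with median log2 differences of -0.15, 0.27 and -0.17. Of all genes tested, 16.5% were raised and 14.4% lowered in 1205Lu, 20.4% and 16.9% in WM793, and 20.5% and 19% in A375. ACTN1, which crosslinks actin at adhesions, fell in 1205Lu, WM793 and A375 (-1.68 ± 0.20, -1.27 ± 0.10 and -1.76 ± 0.09). PXN, an adhesion scaffold, fell likewise (-1.06 ± 0.18, -1.10 ± 0.16 and -2.01 ± 0.11), as did FERMT1, an integrin activator (-1.02 ± 0.37, -1.98 ± 0.29 and -1.89 ± 0.36). TNS3, a tensin, rose in each line (1.72 ± 0.40, 1.74 ± 0.17 and 1.30 ± 0.08), and so did the kinase PTK2B (1.97 ± 0.36, 1.68 ± 0.37 and 1.23 ± 0.21).

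Of 27 other integrin ligands, 6 of 18, 6 of 20 and 6 of 25 rose in 1205Lu, WM793 and A375, and 2, 3 and 6 fell. TNC, encoding tenascin-C and a ligand of α9, fell in each line (-2.89 ± 0.36, -2.21 ± 0.22 and -1.46 ± 0.19), while its relative TNN rose (4.74 ± 0.53, 3.27 ± 0.75 and 4.85 ± 0.56). MFGE8, an RGD ligand of αV integrins, rose too (1.57 ± 0.18, 1.13 ± 0.12 and 0.71 ± 0.15). Of 21 basement membrane and laminin-binding genes, 9 of 17, 12 of 18 and 8 of 21 rose and 3, 0 and 7 fell. DAG1, encoding the laminin receptor dystroglycan, rose in each line (0.84 ± 0.15, 1.61 ± 0.10 and 1.07 ± 0.10). NTN4, a laminin-related basement membrane protein, rose in 1205Lu and WM793 (1.95 ± 0.45 and 2.40 ± 0.18) and fell in A375 (-0.65 ± 0.14). Median log2 differences were 0.52, 0.78 and 0.32 over the ligand list and 0.73, 1.16 and 0.005 over the laminin partner list, beside 0.11, 0.15 and 0.06 over all genes.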

How the data were processed

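RNA was measured in 36 libraries. Per the paper's methods and the submitters' processing notes, STAR 2.7.0 (GRCh38, GENCODE 35) was the authors' aligner, RSEM 1.2.28 gave gene estimates and DESeq2 1.28.1 normalized them. The deposited values are thus a normalized signal per gene, neither raw counts nor per-length values. The read depth behind them is not given, and the library kit does not mark strand. Gene identifiers were matched to GENCODE 44 (60401 of 60656), and all 38 members were found. The values of 1 member, which is in the counts, and of some listed genes are not reported here.

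Values were taken as log2(value + 1), and a gene entered a fit if the mean of any group in it reached 1. limma 3.58.1 in R 4.3.3 fitted each line's 12 libraries, and all 36 for comparisons between lines, with a mean-variance trend. P-values were two-sided and Benjamini-Hochberg adjusted over all genes tested (22144 in 1205Lu, 22074 in WM793, 24370 in A375 and 26779 over all lines), with a threshold of 0.05. The study's methods call in vitro replicates independent experiments, while the labels name no separate cultures. Full values were given for members called in 2 or more lines or in a DOX comparison, or among the 3 largest changes of a line, and some other members were added after their values were seen. The fit was tested on simulated data. Members and lists were chosen with earlier results of these data known. Replicate numbers were taken as pairing the libraries only where every pair's correlation of deviations was over 0.1, which held for DOX under BRAFi + MEKi in 1205Lu (0.11 to 0.27) and WM793 (0.11 to 0.25). Alternatives were a pseudocount of 0.1, no filter, rescaled libraries, a replicate block, a fit of only the libraries compared and leaving out each library.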

Additional observations from a re-analysis of the deposited data

Results flagged for a closer look

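Differences of the inhibitor response between lines were tested for each member in the 36-library limma fit, as log2 differences of BRAFi + MEKi minus DMSO in the first line less the same in the second. The members listed here passed an adjusted p of 0.05. For 1205Lu against WM793, where 14.5% of all genes passed, they were ITGA1 (2.55), ITGA3 (-2.25), ITGA6 (-1.99), LAMB3 (-1.86), ITGA10 (1.77), LAMA4 (1.71), ITGB5 (-1.64) and LAMB2 (-0.69). For 1205Lu against A375, where 14.7% of all genes passed, they were ITGA1 (2.63), ITGA2 (-2.61), ITGA9 (2.05), ITGA11 (-2.02), LAMB3 (-1.76), ITGA7 (1.69), ITGA6 (-1.67), ITGA3 (-1.63), ITGB8 (1.19) and ITGAV (-1.15). For WM793 against A375, where 22.8% of all genes passed, they were ITGB4 (4.42), LAMA3 (3.11), ITGA10 (-2.75), ITGA11 (-2.68), ITGB8 (2.15), LAMA4 (-1.86), ITGB5 (1.72), ITGA7 (1.70), ITGA2 (-1.42), LAMB2 (0.74) and LAMB1 (-0.48). The members that passed under all 17 alternatives were ITGA1, ITGA3, ITGA6, ITGB5 and LAMA4 in the first comparison, ITGA1, ITGA2, ITGA3 and ITGA6 in the second and ITGA10, ITGA11, ITGB4, ITGB5, ITGB8, LAMA3 and LAMA4 in the third. The other differences were each lost under at least 1 alternative. LAMB3 between 1205Lu and A375 and LAMB1 between WM793 and A375 were each lost without any 1 of 11 libraries, and ITGB8 between 1205Lu and A375 without any 1 of 10. The DOX effect under BRAFi + MEKi differed between 1205Lu and WM793 for ITGA10 (2.98), a difference lost without any 1 of 4 libraries.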

How the results depend on the processing

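Directions of the members' differences did not reverse under any alternative for a member called. Rescaling libraries to the same total moved the median over all genes by 0.14 in A375 and 0.18 in WM793 for BRAFi + MEKi against DMSO, by 0.10, 0.16 and 0.12 with DOX in 1205Lu, WM793 and A375, and by -0.10 and -0.13 in DMSO for 1205Lu and WM793 against A375. Fitted on only the libraries compared, BRAFi + MEKi against DMSO in WM793 called 8 members. For DMSO + DOX against DMSO in WM793, 1 member was called with a pseudocount of 0.1, 1 with no filter, 1 after rescaling and 0 with only the libraries compared. With the replicate block, DOX under BRAFi + MEKi gave 1 member called for 1205Lu and 2 for WM793 (1.64% and 0.575% of all genes). A375, where not every pair's correlation reached 0.1 (0.054 to 0.17), had 2 (2.47% of all genes). Each of these A375 correlations was still above the highest with another replicate number. For BRAFi + MEKi against DMSO the block called 16, 17 and 21 members in 1205Lu, WM793 and A375 (35.7%, 41.1% and 42.4% of all genes). Newly called were ITGA11, ITGAV and ITGB8 in 1205Lu, ITGA1, ITGA3, ITGA4 and LAMA2 in WM793 and ITGA6 in A375. In no line did all pair correlations of that comparison reach 0.1 (0.083 to 0.18 in 1205Lu). The block also gave 1 member for the interaction in A375 (0.661% of all genes) and 16 for the inhibitor response of 1205Lu against WM793 (18.4%). It gave 2 for the DOX effect under BRAFi + MEKi of 1205Lu against WM793 (0.609%). For that last comparison, only the libraries compared gave 0 members, and for WM793 against A375 they gave 1. The causes of these changes were not tested.

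Leaving out 1 library at a time, counts of members called ran, in 1205Lu, WM793 and A375, from 10 to 15, 10 to 14 and 19 to 20 for BRAFi + MEKi against DMSO, and from 13 to 17, 10 to 13 and 15 to 17 with DOX. They ran from 0 to 0, 1 to 2 and 0 to 1 for DOX under DMSO, from 0 to 3, 0 to 0 and 0 to 2 for DOX under BRAFi + MEKi, and from 0 to 0, 0 to 0 and 0 to 1 for the interaction. Between 1205Lu and WM793, 1205Lu and A375, and WM793 and A375, they ran from 19 to 22, 29 to 30 and 23 to 25 in DMSO, from 5 to 9, 6 to 11 and 8 to 12 for the inhibitor response, and from 0 to 2, 0 to 1 and 0 to 1 for the DOX effect. Read depth per library was not known, and with 3 libraries a group, small differences were not detectable.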
